A study of Homo sapiens with 6 samples.

Results

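The genes described here form the core of the integrated stress response as it is read at the RNA level. They are the transcription factors ATF4, DDIT3 (the gene of CHOP) and ATF3, the feedback and effector genes TRIB3, CHAC1, PPP1R15A and ASNS, and the eIF2 kinase genes EIF2AK1, EIF2AK3 and EIF2AK4. The 10 genes were taken by symbol, and all 10 were found among the 12982 genes with values. They were measured by RNA sequencing in SW480, a long-established line from a human colorectal adenocarcinoma, treated for 24 h with DMSO, the solvent, or with MPM-1, a fluorescent small molecule that accumulates in mitochondria and that the labels also call WT4. Each treatment had 3 libraries, and both treatments used the same wild-type line in the same medium with serum. Wild-type here means only that no engineered genetic change is described. The dose of MPM-1 in this experiment is not given in the sources used here. Nothing states that the 3 libraries came from separate cultures, so the p-values measure the spread between these libraries, which may be technical. A cell line is 1 genetic background, and in bulk RNA a change in every cell cannot be told apart from a change in the share of cells that respond.

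Protein synthesis starts with eIF2, a factor that carries the initiator tRNA to the ribosome. When a kinase phosphorylates eIF2, general translation slows while the ATF4 mRNA is translated more. EIF2AK1 encodes HRI, which responds to lack of heme and to mitochondrial stress relayed by the protease OMA1 and the protein DELE1. EIF2AK3 encodes PERK, the sensor of the endoplasmic reticulum (ER), and EIF2AK4 encodes GCN2, which senses uncharged tRNA. ATF4 then binds DNA with partners of the bZIP class (basic leucine zipper proteins) and raises genes of amino acid supply together with DDIT3, TRIB3 and CHAC1, while PPP1R15A encodes GADD34, which brings a phosphatase back to eIF2.

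Matches in these promoters to sequences that ATF4 or related factors can bind are shown as background to the pathway. They are matches of letters only, and binding was not tested. Promoters from RefSeq (GRCh38.p14), 250 bases before to 50 after the start of the gene, were found for 9 of the 10 genes, all but EIF2AK1. They were searched on both strands for TGATGNAA, the core of the C/EBP-ATF response element, and for TGACGTCA, the cyclic AMP response element bound by ATF and CREB proteins. None of the 9 promoters held both. The first was present in 3 of the genes and the second in 1, while 3.62% and 1.85% of all 35116 promoters of this length held them. Among the 9598 genes tested here that had a promoter, the shares were 1.51% and 3.28%, in the opposite order. PPP1R15B, the relative of PPP1R15A, is added as a comparison. In each sequence, printed 5′ to 3′ on the strand of the gene, the capitals mark the match.
ASNS: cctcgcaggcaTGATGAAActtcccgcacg
CHAC1: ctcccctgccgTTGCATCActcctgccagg
ATF3: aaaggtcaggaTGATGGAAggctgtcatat
PPP1R15A: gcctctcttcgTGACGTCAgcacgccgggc
PPP1R15B: cccgccccggcTGATGCAAcctcacgctgc

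The ASNS sequence lies at chr7:97872458-97872487 on the minus strand, and its match begins at position -68 from RefSeq's start. It is the element known for the response of ASNS to amino acid lack. The CHAC1 sequence lies at chr15:40953251-40953280 on the plus strand, with the match at -209 on the opposite strand, where it reads TGATGCAA. GENCODE release 29 places both windows in noncoding exon sequence of the same genes. The ATF3 sequence (chr1:212565205-212565234, plus strand, match at -191) and the PPP1R15A sequence (chr19:48872352-48872381, plus strand, match at -58) lie outside annotated genes, and that of PPP1R15B is at chr1:204412026-204412055 on the minus strand with its match at -227, within the gene AL606489.1 and outside its exons. These letters were found in no other window searched of the 10 genes, which says nothing about sites farther away.

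Total counts ran from 32095456 to 40269820 in the DMSO libraries and from 31733667 to 35403841 in the MPM-1 libraries. Values are given as CPM, counts that edgeR's TMM method scaled to libraries of one size, and levels of different genes are compared only as FPKM, which the authors scaled for transcript length. Counts from mitochondrial DNA made up 8.28% to 9.11% of the DMSO libraries and 1.95% to 2.35% of the MPM-1 libraries, and the part of this shift in the values given here was not tested. With scaling by library size alone, the log2 fold changes of all genes had a median of -0.18 in place of -0.026. All 9 colorectal epithelial markers had values, and EPCAM stood at 400.2 ± 22.03 FPKM in DMSO and 360 ± 11.2 FPKM after MPM-1 (SD, n = 3 each). On TMM-scaled counts the log2 fold change of EPCAM was -0.00084 (adjusted p = 0.995 by edgeR). The other 8 markers moved in both directions at an adjusted p-value under 0.05. Of the 9 markers, 44.4% were higher and 44.4% lower at that level, against 27.7% and 28.8% of all genes. KRT18 (log2 fold change 0.89), KRT19 (0.89), CDH1 (0.82) and KRT8 (0.42) were higher after MPM-1, and CDX2 (-2.20), KRT20 (-2.03), CDX1 (-0.98) and VIL1 (-0.88) were lower. Of 8 markers of blood, stromal and endothelial cells, only CD14, CD79A and COL1A1 had values, none above a mean of 5.08 FPKM in either treatment. CD79A was higher and the other two lower after MPM-1, and the summed level of the 3 was 13.2 to 14.9 CPM in DMSO and 6.24 to 9.07 CPM after MPM-1.

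After MPM-1, 7 of the 10 genes were higher and none was lower by a rule that asks for an adjusted p below 0.01 together with a log2 change of 1 or more in either direction (edgeR's quasi-likelihood test, Benjamini-Hochberg adjustment over all genes). The 7 are the 3 transcription factors and the 4 feedback and effector genes. Of all genes tested, 5.58% were called higher and 8.75% lower by that rule. None of the eIF2 kinase genes was called. At an adjusted p-value under 0.05 with no limit on the fold, the same 7 genes were higher and EIF2AK4 was lower, against 27.7% higher and 28.8% lower among all genes. In 9 of the 10 genes the CPM ranges of the treatments did not overlap, and this also held for 64.3% of all genes. The median log2 fold change of the 10 genes was 1.61, and that of all genes was -0.026.

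**Figure D1:**
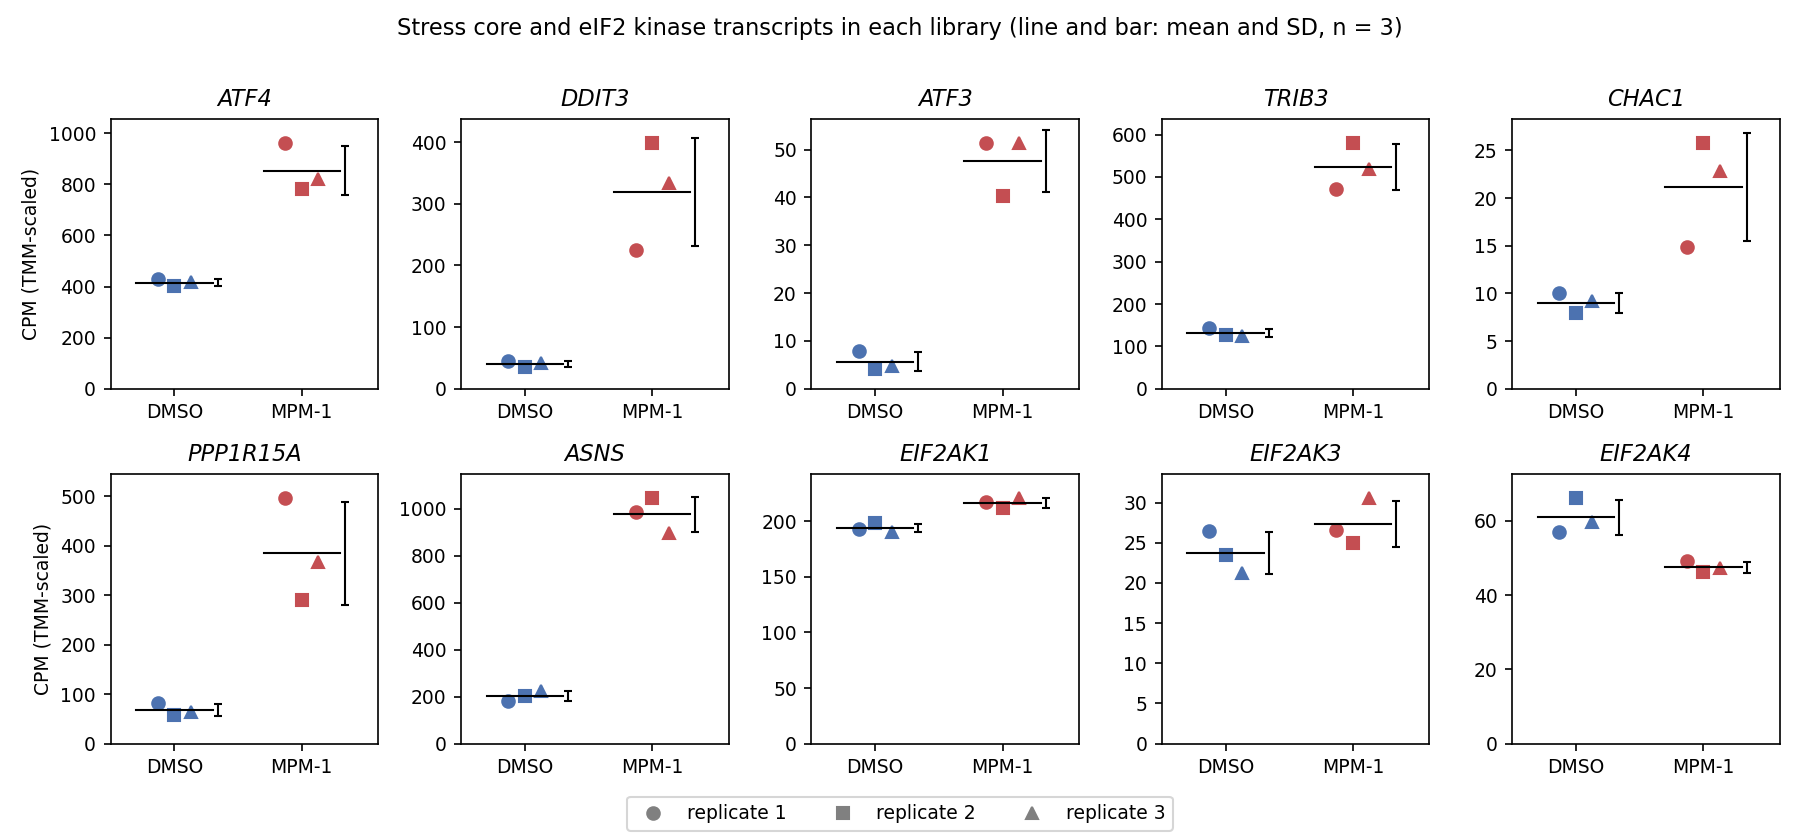
CPM of each of the 10 genes (vertical axes from 0, a separate scale per gene) in the 3 DMSO and 3 MPM-1 libraries, with marker shapes for replicates, lines for means and bars for SD. In the 7 stress genes every MPM-1 point is above every DMSO point, in EIF2AK4 every MPM-1 point is below, and in EIF2AK3 the treatments overlap.

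ATF4 (ENSG00000128272, chromosome 22, 39519695 to 39522685 on GRCh38), the central factor of the response, had 428, 400 and 417 CPM in the DMSO libraries and 960, 780 and 820 CPM in the MPM-1 libraries. All 3 treated libraries were above all controls. The log2 fold change was 1.04 (SE, the standard error, 0.087, with adjusted p = 1.31e-05 by edgeR). This is just past the fold limit of 1, and it fell to 0.96 without MPM-1 replicate 1, to 0.89 with scaling by library size alone and to 0.79 on FPKM, where the rise passed the test and missed the limit. Measured from the median of all genes in the same setting, the value was 0.97 without MPM-1 replicate 1. It was 1.06 by library size alone and 0.94 on log2(FPKM + 0.1).

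DDIT3 (ENSG00000175197, chromosome 12, 57516588 to 57521737) encodes CHOP, a bZIP factor linked to cell death under lasting stress. It had 44.5, 35.1 and 41.6 CPM in DMSO and 225, 398 and 333 CPM after MPM-1. The lowest treated library stood well above the highest control, and the treated libraries were also the more spread. The difference was 7.89-fold (95% interval 5.84 to 10.7), a log2 fold change of 2.98 (SE 0.19, adjusted p = 3.06e-06). On its own strand DDIT3 overlaps the protein-coding gene AC022506.1 by 2769 bases and MIR616 by 97 bases, neither of which had values here. Reads could thus have been divided between them and DDIT3 even if the counting used strand. On the other strand DDIT3 overlaps MARS by 982 bases and MBD6 by 1028 bases. Reads of MARS and MBD6 cannot be told apart from those of DDIT3 if the counting ignored strand. MARS itself had a log2 fold change of 0.79.

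ATF3 (ENSG00000162772, chromosome 1, 212565334 to 212620777), a stress-induced factor of the same class, was the lowest of the 10 in DMSO per transcript length. Its CPM was 7.91, 4.24 and 4.85 in DMSO and 51.3, 40.3 and 51.3 after MPM-1. The controls rested on 261, 183 and 193 counts and the treated libraries on 1564, 1238 and 1722. It had the largest log2 fold change of the 10, 3.08 (SE 0.22, adjusted p = 5.11e-06 by edgeR), and was the 48th largest rise of all 12982 genes. The 95% intervals of ATF3 (2.59 to 3.57) and DDIT3 (2.55 to 3.42) overlapped almost wholly on the log2 scale, and that of ATF4 (0.84 to 1.24) lay below both.

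TRIB3 (chromosome 20, 362835 to 397559), a pseudokinase that ATF4 and CHOP induce and that restrains them in turn, had 144, 127 and 125 CPM in DMSO and 471, 580 and 519 CPM after MPM-1. The treatments were far apart relative to their spread. Its log2 fold change was 1.99 (SE 0.098, adjusted p = 6.50e-07).

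CHAC1 (chromosome 15, 40952962 to 40956519) encodes an enzyme that breaks down glutathione. It had 10.0, 7.90 and 9.16 CPM in DMSO and 14.9, 25.8 and 22.8 CPM after MPM-1, so MPM-1 replicate 1 was nearer to the controls than to its own group's highest library. The log2 fold change was 1.23 (SE 0.20, adjusted p = 0.000692 by edgeR). It was 1.45 without MPM-1 replicate 1, and at 0.96 it missed the fold limit on log2(FPKM + 1).

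PPP1R15A (chromosome 19, 48872392 to 48876057), the inducible arm of the eIF2 phosphatase, had 81.7, 58.9 and 64.2 CPM in DMSO and 496, 291 and 367 CPM after MPM-1. Here MPM-1 replicate 1 was the highest library. The difference was 5.64-fold (95% interval 4.17 to 7.63), a log2 fold change of 2.50 (SE 0.19, adjusted p = 8.46e-06).

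ASNS (chromosome 7, 97852118 to 97872542), which makes asparagine, had 182, 204 and 223 CPM in DMSO and 984, 1045 and 899 CPM after MPM-1. Its libraries were close together within each treatment. The log2 fold change was 2.27 (SE 0.096), with the smallest adjusted p of the 10 genes, 4.07e-07 by edgeR's quasi-likelihood test. GENCODE release 29 places the transcript gene AC079781.5 over the whole of ASNS on the same strand, so reads could have been divided between them.

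The MPM-1 libraries did not keep one order across the 7 induced genes. Replicate 1 was lowest for DDIT3, TRIB3 and CHAC1. The same library was highest for ATF4, PPP1R15A and, by a small margin, ATF3, while replicate 2 was lowest for ATF4, ATF3 and PPP1R15A and highest for DDIT3, TRIB3, CHAC1 and ASNS. Of all 725 genes called higher, replicate 1 was lowest in 25.4%, replicate 2 in 47.7% and replicate 3 in 26.9%. The same 2 libraries stood at the ends of the second principal component of all genes, replicate 1 at 20.4 and replicate 2 at -18.6, which held 7.32% of the variance against 78.7% for the first, the axis that parted the treatments. Its part in these values was not tested.

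Levels per transcript length show how the set was ordered before and after treatment. In DMSO, ATF4 was the most abundant at 245 FPKM (mean of n = 3; range 230 to 274), above 97.9% of all genes, followed by ASNS at 104 and TRIB3 at 54.0 FPKM. DDIT3 (44.6) and EIF2AK1 (44.4) did not differ beyond their spread, and below them came PPP1R15A at 30.4, EIF2AK4 at 11.7, CHAC1 at 5.73, EIF2AK3 at 5.20 and ATF3 at 2.96 FPKM. CHAC1 and EIF2AK3 overlapped.

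After MPM-1 the order was ASNS (456 FPKM), ATF4 (425), DDIT3 (317), TRIB3 (193) and PPP1R15A (155), each overlapping its neighbour in range. EIF2AK1 followed at 44.6, ATF3 at 23.9, CHAC1 at 12.3, EIF2AK4 at 8.13 and EIF2AK3 at 5.41 FPKM, with no overlap between neighbours. Thus 5 of the stress transcripts stood above 96.5% of all genes or more, and DDIT3 passed from the level of EIF2AK1 to above 98.2% of all genes.

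**Figure D2:**
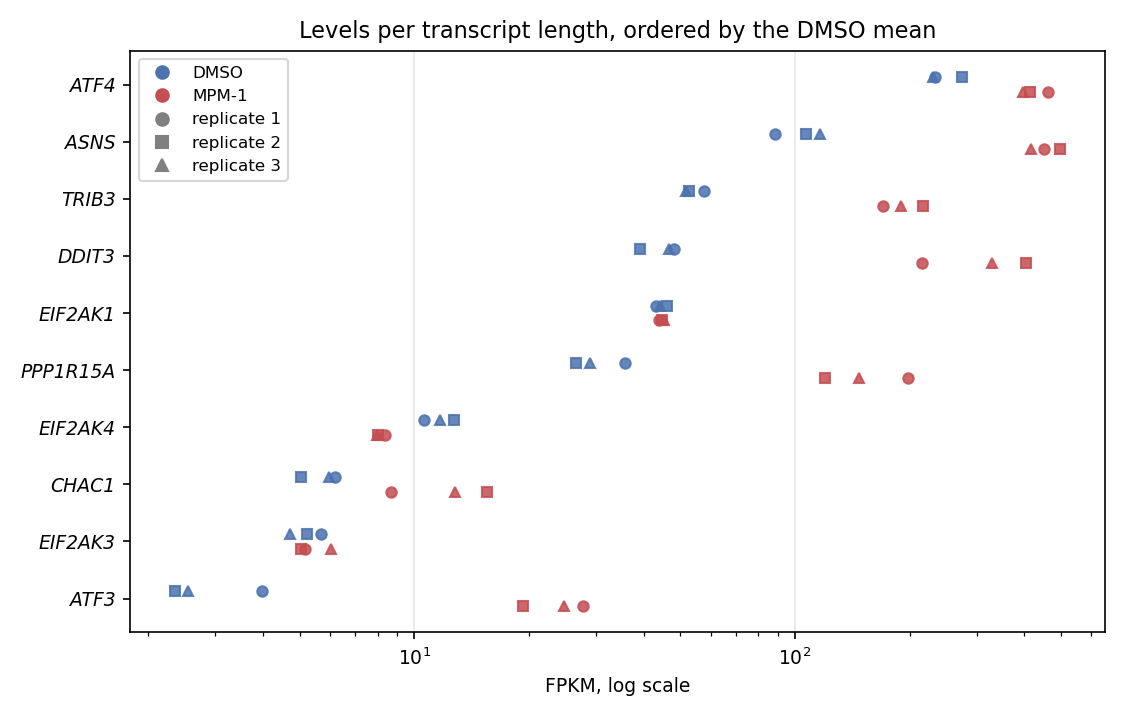
FPKM of the 10 genes in each library (horizontal log axis), DMSO in blue and MPM-1 in red, ordered by the DMSO mean. After MPM-1 the points of ASNS and DDIT3 overlap those of ATF4, and TRIB3 and PPP1R15A are higher than in DMSO but below ATF4, while EIF2AK1 and EIF2AK3 overlap between treatments and EIF2AK4 is lower after MPM-1.

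The induced genes did not all rise in step with the ATF4 transcript. The log2 ratio of DDIT3 to ATF4, from FPKM, was -2.28, -2.81 and -2.30 in DMSO and -1.10, -0.030 and -0.27 after MPM-1. These ratios did not overlap, and the same held for ATF3, PPP1R15A, ASNS and TRIB3, whose mean log2 ratios to ATF4 were higher after MPM-1 by 2.25, 1.54, 1.34 and 1.04. For CHAC1 the ratios overlapped, with a mean difference of 0.28 (exact permutation test, two-sided, p = 0.4). The ratios of EIF2AK1, EIF2AK3 and EIF2AK4 to ATF4 did not overlap either, with mean differences of -0.79, -0.74 and -1.31. As ATF4 itself rose, non-overlap alone does not set the induced genes apart. The share of all genes whose ratio to ATF4 did not overlap was not computed. Each ratio that did not overlap gave p = 0.1 in that exact test (0.125 after adjustment over the 15 ratios, shares and sums tested), the smallest value that 3 libraries against 3 allow.

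Kinase transcripts moved by far less than the genes downstream of them. EIF2AK1 (chromosome 7, 6022244 to 6059230) had 193, 198 and 191 CPM in DMSO and 218, 212 and 221 CPM after MPM-1. Its log2 fold change was 0.16 (95% interval 0.010 to 0.31, adjusted p = 0.0653 by edgeR). On FPKM the treatments overlapped and the value was 0.0069, while DESeq2's test gave 0.18 with an adjusted p of 0.0287, past 0.05. The median of all genes was -0.15 on FPKM and -0.0057 in DESeq2's test, and EIF2AK1 lay 0.15 and 0.19 above it. EIF2AK1 overlaps AIMP2 by 1591 bases on the other strand.

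EIF2AK3 (chromosome 2, 88556741 to 88627576) had 26.4, 23.5 and 21.3 CPM in DMSO and 26.6, 25.0 and 30.6 CPM after MPM-1. The ranges overlapped, and the log2 fold change of 0.21 had a 95% interval of -0.056 to 0.47 (adjusted p = 0.158 by edgeR). A change of the size seen in the 7 induced genes is outside that interval. EIF2AK4 (chromosome 15, 39934146 to 40035591) fell, from 57.1, 66.2 and 59.7 CPM in DMSO to 49.2, 46.2 and 47.2 CPM after MPM-1. The log2 fold change was -0.36 (SE 0.082, adjusted p = 0.00457 by edgeR's quasi-likelihood test), and it lay between -0.52 and -0.30 under all the alternative settings, with an adjusted p of at most 0.026.

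The kinase family was also described by shares, with EIF2AK2, the gene of the RNA-sensing kinase PKR, added to complete it. EIF2AK1 gave 65.9% ± 0.725 of the summed FPKM of the 4 kinase genes in DMSO and 69.1% ± 0.399 after MPM-1 (SD, n = 3 each). EIF2AK4 gave 17.2% ± 0.91 and 12.6% ± 0.522. Neither share overlapped between treatments. EIF2AK2 gave 9.18% ± 0.433 and 9.92% ± 0.136, also without overlap, and each of these 3 shares had p = 0.1 by the exact permutation test (0.125 adjusted). EIF2AK3, at 7.72% ± 0.866 and 8.36% ± 0.702, overlapped (exact permutation p = 0.4). The sum of the 4 was 67.5 ± 2.89 FPKM in DMSO and 64.6 ± 1.04 FPKM after MPM-1, again with overlap (exact permutation p = 0.2). The shares are parts of a whole, so a fall in EIF2AK4 alone raises the others, and they are not separate results. In mean FPKM, EIF2AK4 went from 11.7 to 8.13, EIF2AK1 from 44.4 to 44.6 and EIF2AK2 from 6.21 to 6.40.

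**Figure D3:**
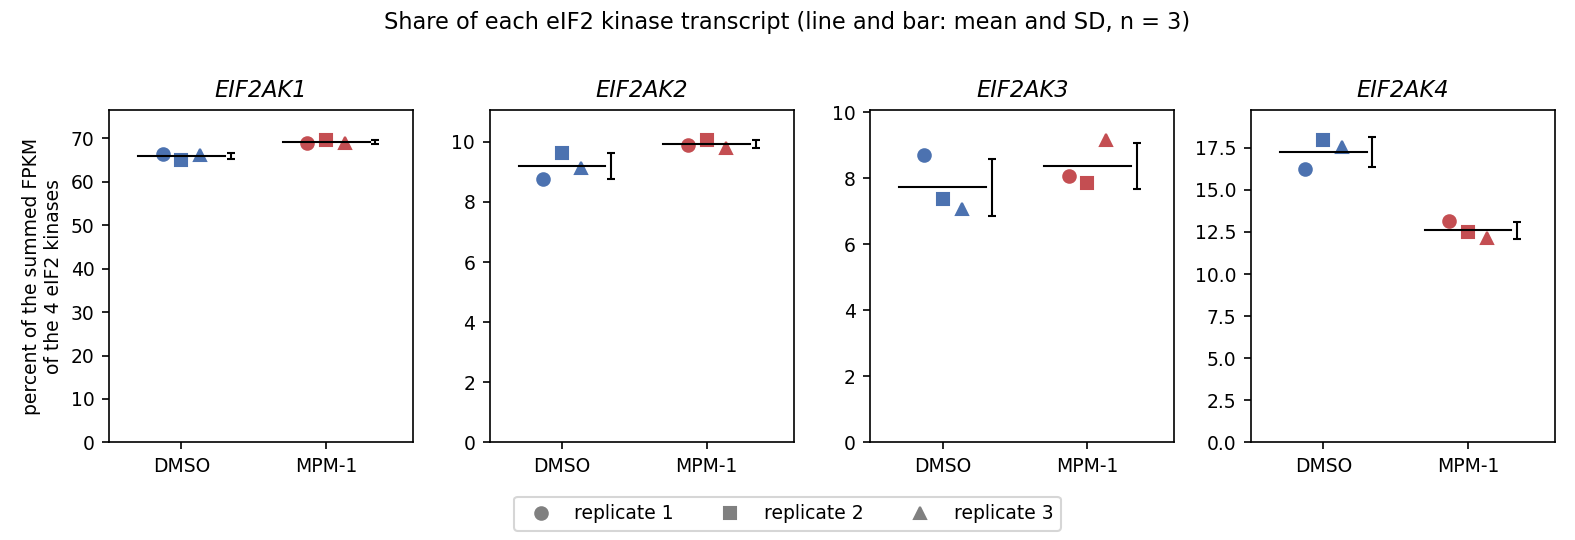
Share of each eIF2 kinase gene in the summed FPKM of all 4 (vertical axes in percent, from 0, a separate scale per gene) in each library, with lines for means and bars for SD. EIF2AK1 is the largest share in every library, and the share of EIF2AK4 is lower in all 3 MPM-1 libraries.

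Genes that act directly on the kinases and on eIF2 were examined next. OMA1, the mitochondrial protease upstream of HRI, was called lower, from 6.73, 9.82 and 9.89 CPM in DMSO to 3.22, 4.52 and 3.78 CPM after MPM-1, a log2 fold change of -1.20 (SE 0.22, adjusted p = 0.00132 by edgeR). DELE1, its relay, had a log2 fold change of 0.20 (adjusted p = 0.0714). GCN1, the partner that GCN2 needs to sense uncharged tRNA, fell by 0.65 on the log2 scale (adjusted p = 8.55e-05). DNAJC3, an ER protein that inhibits PERK and PKR, was called higher with a log2 fold change of 1.37. Of the 12 regulators of kinases and phosphatase, these were the single calls in each direction (8.33% each, against 5.58% and 8.75% of all genes), and 4 were higher and 4 lower at an adjusted p-value under 0.05 (33.3% each, against 27.7% and 28.8%), so the list as a whole was near the background. The 11 genes of eIF2, its exchange factor eIF2B and linked factors held no call, of which the shares over all genes would give fewer than 1 in each direction. At an adjusted p-value under 0.05, 7 were higher and 3 lower (63.6% and 27.3%, against 27.7% and 28.8% of all genes). Their log2 fold changes ran from -0.77 to 0.50. EIF2S1, the subunit that the kinases phosphorylate, had a log2 fold change of 0.26 (adjusted p = 0.018).

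Of the 10 closest relatives, 1 was called higher and 2 lower, with a median log2 fold change of 0.0063. Such small counts are near the shares of all genes called, 5.58% and 8.75%. PPP1R15B, the constitutive partner of the eIF2 phosphatase, had 126, 112 and 96.2 CPM in DMSO and 87.9, 83.7 and 124 CPM after MPM-1, with overlap. Its log2 fold change was -0.18 (95% interval -0.52 to 0.16, adjusted p = 0.341 by edgeR). The ratio of PPP1R15A to PPP1R15B, in FPKM, was 1.48, 1.20 and 1.52 in DMSO and 13.1, 7.98 and 6.81 after MPM-1 (exact permutation p = 0.1, 0.125 adjusted), a ratio chosen after the value of PPP1R15A was seen.

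TRIB2, a relative of TRIB3, fell from 7.85, 12.6 and 13.4 to 1.18, 2.15 and 1.40 CPM, a log2 fold change of -2.84 (SE 0.29, adjusted p = 4.15e-05 by edgeR). TRIB1, the third of that family, had 19.6 CPM in MPM-1 replicate 1 against 41.9 and 39.3 in the others, around DMSO values of 28.8 to 32.3, and a log2 fold change of 0.14 (adjusted p = 0.639). CHAC2, which encodes the second enzyme of the CHAC1 kind, fell from 8.73, 13.2 and 11.5 to 3.15, 4.52 and 3.01 CPM (log2 fold change -1.65, adjusted p = 0.000257). Each of these falls is opposite to the rise of the related stress gene.

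Among the bZIP relatives, CEBPG, a dimer partner of ATF4, was called higher, from 89.9, 85.8 and 88.1 to 207, 189 and 189 CPM (log2 fold change 1.15, adjusted p = 2.87e-06 by edgeR), though it was not called by library size alone or on FPKM. CEBPB and ATF5 rose by log2 fold changes of 0.78 and 0.97, short of the limit. ATF5 rested on 139 to 170 counts in DMSO. JDP2 (-0.17) did not pass at an adjusted p-value under 0.05, nor did ASNSD1 (-0.12), the relative of ASNS and not a bZIP gene.

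**Figure D4:**
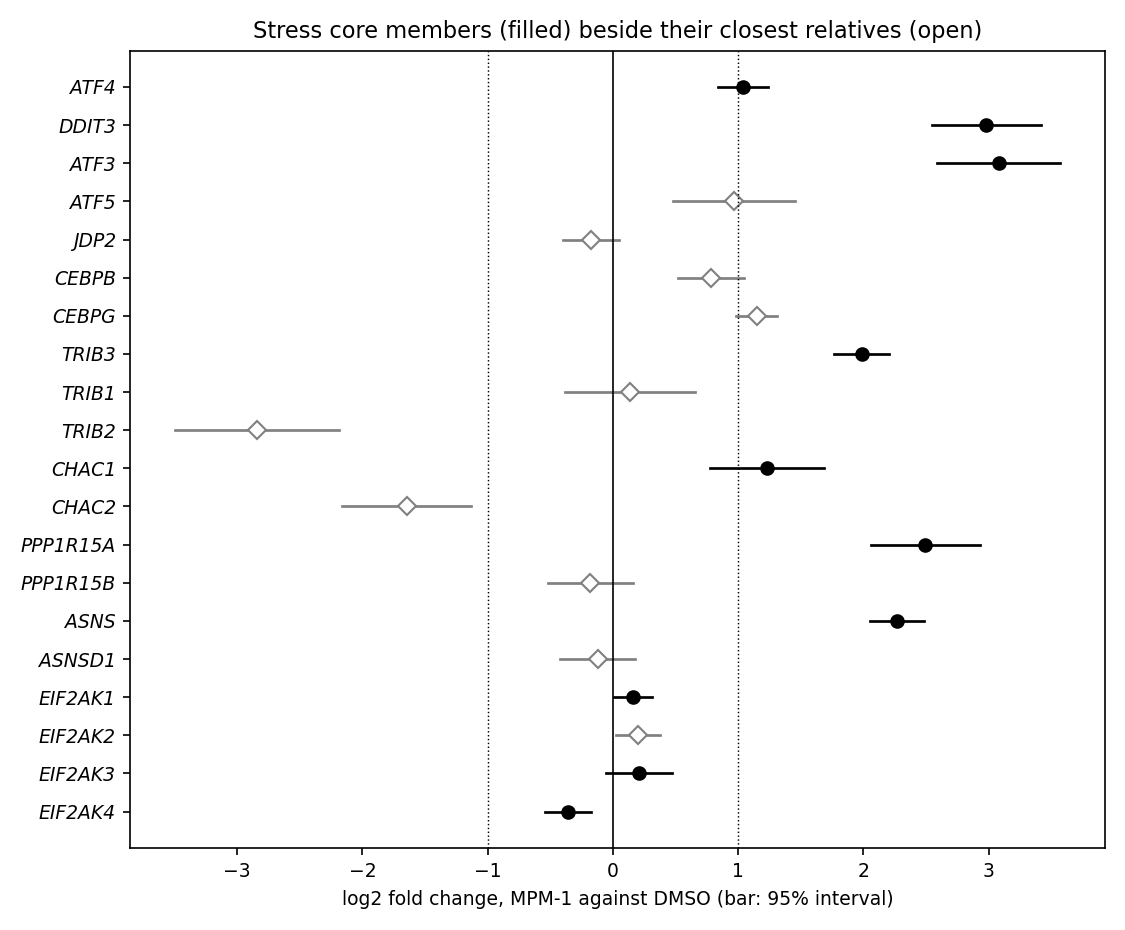
Log2 fold change of MPM-1 against DMSO (horizontal axis, bars for 95% intervals) of the 10 genes (filled circles) and of their closest relatives (open diamonds), with dotted lines at -1 and 1. TRIB2 and CHAC2 lie below -1 while TRIB3 and CHAC1 lie above 1, and the interval of PPP1R15B spans 0.

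Other genes of the pathway were counted in lists written from general knowledge, some of which share genes. The lists were chosen with earlier results of these data known, so their counts are descriptions and not independent support. Of 13 further stress targets of ATF4 with values, 9 were called higher (69.2%, against 5.58% of all genes) and none lower. Their median log2 fold change was 1.92, against -0.026 for all genes. The largest rises were in CCPG1, a receptor for autophagy of the ER (2.27), UPP1, an enzyme of uridine breakdown (2.25), and GDF15, a secreted stress signal (1.98). GDF15 went from 847 ± 150 to 3006 ± 259 FPKM (SD, n = 3 each). HMOX1 was the 1 gene of this list that did not pass, with a log2 fold change of 0.014, and was chosen for mention after its value was seen.

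Of 19 genes of amino acid supply, 2 were called higher, both parts of the cystine and glutamate exchanger: SLC7A11 with a log2 fold change of 1.74 and SLC3A2 with 1.45. A count of 2 among 19 is small and near the share of all genes called higher, 5.58%. At an adjusted p-value under 0.05, 15 rose and 3 fell (78.9% and 15.8%, against 27.7% and 28.8% of all genes). The median log2 fold change of the list was 0.35. Cytosolic aminoacyl-tRNA synthetases, which load tRNA with amino acids, held 5 calls among 20 genes, all higher (25%, against 5.58% of all genes). At the looser level 14 rose and 1 fell (70% and 5%, against 27.7% and 28.8% of all genes). WARS (1.68), SARS (1.37) and GARS (1.28) rose most. The count of 5 was 3 on FPKM and by library size alone. ASNS, with a log2 fold change of 2.27, was thus above every gene of both lists.

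The bZIP list of 35 genes had 11 called higher and 2 lower (31.4% and 5.71%, against 5.58% and 8.75% of all genes). Its median was 0.74. MAFF, a small MAF protein, rose most (1.97), followed by the AP-1 members JUNB (1.82) and JUN (1.63), while CREB3L3 (-1.37) and CEBPA (-1.19) fell. ATF3 and DDIT3 were above all of these. The count of 11 was 5 by library size alone and 6 on FPKM.

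Of 20 ER chaperones and sensors, 10 were called higher (50%, against 5.58% of all genes) and none lower, with a median of 1.04. DNAJB9 (2.63), HSPA5 (2.33), the main ER chaperone and inhibitor of PERK, and HERPUD1 (2.17) rose most. HSPA5 had 1618, 1179 and 1189 CPM in DMSO and 8742, 4785 and 6477 CPM after MPM-1, highest in replicate 1 and lowest in replicate 2, the order seen for ATF4 and PPP1R15A. The 11 mitochondrial chaperones and proteases held no call, and at 5.58% and 8.75% of all genes fewer than 1 would be called in each direction in a list of that size. They had log2 fold changes from -0.95 to 0.96. At an adjusted p-value under 0.05, 5 were higher and 4 lower (45.5% and 36.4%, against 27.7% and 28.8% of all genes). Of 8 death genes linked to CHOP, BBC3 (1.51), which encodes the BH3-only protein PUMA, and TNFRSF10B (1.29), which encodes a death receptor, were called higher. That is 25%, against 5.58% of all genes, and none was called lower. At an adjusted p-value under 0.05, 4 were higher, 1 was lower and 3 did not pass. The shares were 50% higher and 12.5% lower, against 27.7% and 28.8% of all genes. With 8 genes these shares rest on small counts. The other two that rose were MCL1, which encodes a survival protein (0.70), and ERO1A, an oxidase of the ER (0.53), and the one that fell was PMAIP1, which encodes the BH3-only protein NOXA (-0.33). These 3, like the epithelial markers, were named after their values were seen.

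**Figure D5:**
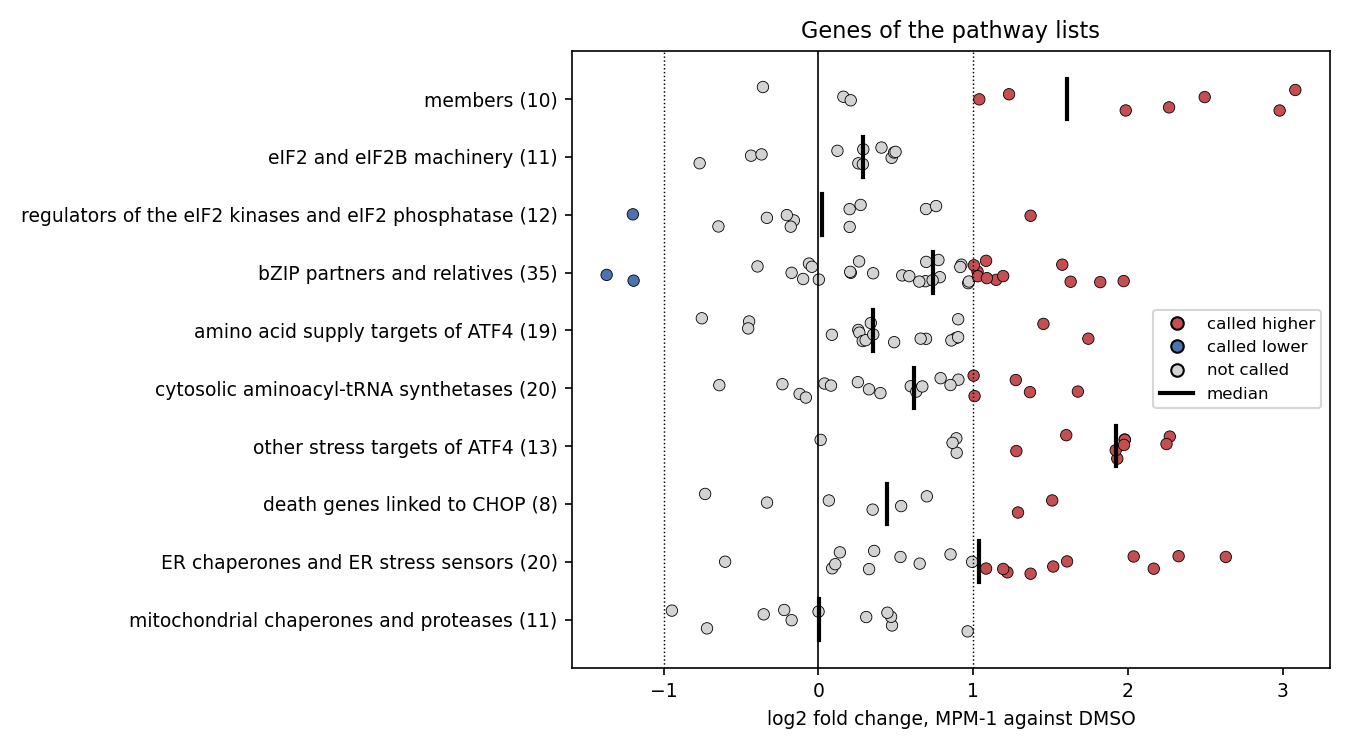
Log2 fold change of MPM-1 against DMSO (horizontal axis) of each gene in the pathway lists, with the number of genes with values in brackets, red for called higher, blue for called lower, gray for not called and a bar for the median. The 10 genes and the further stress targets reach the highest medians, 1.61 and 1.92.

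The transcripts whose log2 CPM followed DDIT3 most closely over the 6 libraries, among the 7644 genes averaging 5 FPKM or more, were AREG (Pearson's r = 0.9994), CCDC174 and FGF19. Those closest to ATF4 were JUNB (0.9996), CCNL1 and PXK. The points share libraries and fall into the 2 treatments, so these are descriptions of likeness only.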

How the data were processed

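RNA of 6 SW480 libraries (3 DMSO, 3 MPM-1) was sequenced by a company. The authors deposited 1 table that gives, per gene and library, a raw count and an FPKM value, plus their own fold change and FDR, which were not used. The submitters' processing notes name HISAT2, DESeq2 and the build mm10, although the identifiers are human. Counting, strand use and annotation are not given in the sources used here. Coordinates came from GENCODE release 29 (GRCh38), matched by Ensembl identifier.

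Counts were tested with edgeR 4.0.16 (R 4.3.3), TMM scaling, on all genes of the table and all libraries without covariates, with Benjamini-Hochberg adjustment. No further filter was applied. Fold-change intervals are 95% and use the moderated degrees of freedom. FPKM, deposited by the authors, was used for levels, shares and ratios. The script was tested on simulated data. Alternatives used limma 3.58.1 and DESeq2 1.42.0. The 10 genes and the 10 gene lists were chosen with earlier results of these data known. Named genes are the 10 members, fixed relatives and upstream genes, the 3 largest rises and falls among called genes of each list, and the 3 genes most like DDIT3 and ATF4.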

Additional observations from a re-analysis of the deposited data

How the results depend on the processing

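All 7 rises and the fall of EIF2AK4 kept their direction and an adjusted p-value under 0.05 in each of 15 alternative settings. The number of genes called higher ranged from 5 to 7, since ATF4 missed the fold limit in 6 settings and CHAC1 in 1, and none was called lower. EIF2AK1 passed 0.05 with DESeq2's test (0.18, adjusted p = 0.0287), with DESeq2's size factors (0.18, adjusted p = 0.0484) and without MPM-1 replicate 2 (0.20, adjusted p = 0.0493). Some list counts moved. By library size alone the calls were 5 bZIP genes, 3 synthetases and 0 relatives higher and 1 mitochondrial chaperone or protease lower. On FPKM, at each pseudocount and without the filter, they were 6, 3, 0 and 1, and with a pseudocount of 1 no kinase regulator was called lower (0). With 1 library left out, relatives called higher ranged from 1 to 2 and mitochondrial genes called higher from 0 to 1 (without MPM-1 replicate 3). The replicate number as a block gave 7 genes higher and 0 lower, and 712 higher and 1120 lower over all genes (725 and 1136 without it). Deviations of same-numbered libraries correlated at 0.0214, 0.114 and -0.0737, and not every library correlated best with its own number, so the numbers were not treated as pairs. The lowest count of any of the 10 genes in any library was 183, in ATF3.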

Other observations

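The C/EBP-ATF response element letters TGATGNAA were present in 4.81% of the 499 genes called higher that had a promoter (24 genes), in 1.16% of the 776 called lower and in 1.51% of all 9598 genes tested with one. For TGACGTCA the shares were 4.81%, 2.71% and 3.28%. These shares are descriptions, with no test, and ASNS, CHAC1 and ATF3 are among the 24.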
